A study of Mus musculus with 9 samples.

Results

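The expression of 6 genes whose products tie chromosome ends to the nuclear envelope in meiotic prophase was followed through mouse spermatogenesis by single-cell RNA sequencing: Terb1, Terb2, Majin, Spdya, Sun1 and Terf1. The members were taken by name, and all 6 were found among the 26567 genes detected in more than 15 barcodes that passed the filters. Whole testes were collected on postnatal day 24 from 4 control, 2 NELF-B cKO and 3 TDP-43 cKO mice, with 1 droplet library per mouse. NELF-B is a subunit of the complex that holds RNA polymerase II paused downstream of promoters, and TDP-43, encoded by Tardbp, is a nucleic acid binding protein. Each cKO mouse carried 1 floxed and 1 null allele of the targeted gene (Nelfb, exons 1 to 4, or Tardbp, exon 3) and Stra8-iCre. The recombinase of this transgene is driven by the Stra8 promoter and acts in spermatogonia (SG). Somatic cells thus kept the floxed allele beside the null one. All mice are labelled C57BL/6, and by the study's methods the lines had been backcrossed to C57BL/6 J. Controls were littermates or non-littermates, and the labels name no allele for them, but the deposited matrix of control mouse 2 carries the word het, which no source used here explains.

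In leptotene and zygotene spermatocytes (SC) every telomere becomes attached to the inner nuclear membrane, and the attached ends are moved along the envelope by cytoplasmic dynein so that homologous chromosomes can find each other. TERB1, TERB2 and MAJIN form the complex that links telomeric DNA to the membrane, and TERB1 binds TRF1 (encoded by Terf1), the shelterin protein that coats double-stranded telomere repeats. SUN1 spans the inner membrane and takes up the force from KASH5 in the outer membrane, while Speedy A (encoded by Spdya) binds and activates CDK2 at telomeres. Males lacking Terb1, Terb2, Majin, Spdya or Sun1 arrest in meiotic prophase, whereas Terf1 also protects telomeres in all dividing cells.

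By clustering and marker genes, germ cells were assigned to undifferentiated SG, differentiating SG, 5 classes of SC and round spermatids (RS). The SC classes were preleptotene (pL) and leptotene (L), then zygotene (Z), then pachytene (P), and last diplotene (D). These are stage-like clusters named from RNA only, and neither the 6 members nor the related telomere genes entered the clustering. Of 45132 barcodes, 17800 were germ cells with a stage, and each mouse contributed 119203347 to 159407373 unique molecular identifiers (UMIs, each one captured RNA molecule) over all its barcodes. Counts were summed per mouse and stage and scaled to the same total in every sum, as CPM. Nelfb stood at 61.9 to 74.2 CPM in SG and early SC (pL, L and Z) of the controls and at 4.21 and 5.02 CPM in the NELF-B cKO. Tardbp stood at 107 to 138 CPM in the same cells of the controls and at 34.5, 45.8 and 49.6 CPM in the TDP-43 cKO, where a 3′ UMI does not report on the deleted exon. Up to Z, 91 germ cells of the NELF-B cKO that still held Nelfb UMIs and 2703 of the TDP-43 cKO that held Tardbp UMIs did not enter the genotype comparisons. P, D and RS cells were compared with none left out. P cells of the TDP-43 cKO held a similar level of Tardbp (135 and 139 CPM in the mice with more than 4 such cells) to those of the controls (136 to 156 CPM) and cannot be read as cells that lost the gene. In D of the same mice Tardbp stood at 52.8 and 55.7 CPM against 52.7 to 73.6 CPM in the controls, and in RS at 27.3 and 22.4 CPM against 30.9 to 41.7 CPM, so the D and RS comparisons rest on cells that still held Tardbp RNA. In P cells of the NELF-B cKO Nelfb stood at 1.94 and 3.23 CPM, against 27.0 to 33.6 CPM in the controls.

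All 6 genes are protein coding, and each lies on a different chromosome. In GRCm38 coordinates Terf1 occupied chr1:15805646-15844052 (plus strand), Terb2 chr2:122186272-122206397 (plus), Sun1 chr5:139200637-139249840 (plus), Terb1 chr8:104446719-104509910 (minus), Spdya chr17:71552061-71589533 (plus) and Majin chr19:6184388-6224225 (plus). The RefSeq promoter table of build GRCm38.p6 held entries for Terb1, Spdya and Sun1, and the first of 2 Sun1 entries is used here. Their 250 bases before the start in that table are printed because 2 of these genes, Terb1 and Spdya, had the steepest rises from SG to L among the members and Sun1 a shallower one. The RefSeq start of Terb1 lies inside the gene span given above, so the end of its window falls within that span. Each is written 5′ to 3′ on the strand of the gene, and capitals mark matches to the MYB motif, the site of the transcription factor family that includes the meiotic regulator MYBL1.
Spdya, chr17:71551811-71552060, plus strand: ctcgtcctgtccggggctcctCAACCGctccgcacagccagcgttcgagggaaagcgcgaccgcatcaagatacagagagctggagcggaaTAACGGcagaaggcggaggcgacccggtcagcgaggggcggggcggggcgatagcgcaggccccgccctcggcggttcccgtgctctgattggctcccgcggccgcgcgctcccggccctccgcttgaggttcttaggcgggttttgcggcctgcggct
Terb1, chr8:104509888-104510137, minus strand: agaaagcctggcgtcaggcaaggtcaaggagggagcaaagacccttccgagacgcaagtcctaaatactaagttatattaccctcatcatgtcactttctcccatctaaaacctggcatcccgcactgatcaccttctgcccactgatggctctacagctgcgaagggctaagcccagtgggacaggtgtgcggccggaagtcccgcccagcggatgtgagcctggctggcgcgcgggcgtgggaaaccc
Sun1, chr5:139200387-139200636, plus strand: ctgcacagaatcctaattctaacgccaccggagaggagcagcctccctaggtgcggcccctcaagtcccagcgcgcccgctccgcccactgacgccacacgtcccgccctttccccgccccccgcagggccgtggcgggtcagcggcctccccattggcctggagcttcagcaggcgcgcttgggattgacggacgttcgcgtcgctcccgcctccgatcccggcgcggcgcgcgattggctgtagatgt

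Both strands of these windows were searched for the MYB motif (TAACNG or CAACNG), a STRA8 motif (CNCCTCAG), E2F (TTTCCCGC or TTTGGCGC), the E-box CACGTG and the CRE TGACGTCA. The Spdya window held 2 MYB matches, CAACCG at 229 and TAACGG at 159 bases before the start, and no match of the other motifs. The Terb1 window and the printed Sun1 window held none of the 5, and the second Sun1 entry, not printed, held 1 MYB match on the minus strand, 44 bases before its start. A MYB match was present in 43.1% of all 32851 promoters, a STRA8 match in 6.42%, an E-box in 6.02%, a CRE in 1.55% and an E2F match in 1.3%, so these letters do not set the Spdya window apart. The 3 windows were 70.4% (Spdya), 58.0% (Terb1) and 70.0% (Sun1) G or C, against a median of 52.4% over all promoters.

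In control mice Terb1, Terb2, Majin, Spdya and Sun1 rose from SG through pL to a maximum or near-maximum in L, and every member fell from L to Z in 4 of 4 mice. These stage levels are a description, with no test, since the stages are clusters of the same cells. The ratio of early SC to SG, averaged over mice as a log2 value, was 2.69 ± 0.40 (SD, n = 4) for Spdya, 2.29 ± 0.33 for Terb1, 1.88 ± 0.38 for Majin, 1.69 ± 0.21 for Terb2, 0.91 ± 0.14 for Sun1 and 0.10 ± 0.03 for Terf1. All 4 mice lay above 0 for all 6 genes. Terf1 is thus the member whose level hardly differed between the 2 pools, and its profile within them is given last. With free RNA subtracted all 6 ratios were higher, as given in the closing sections.

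**Figure D1:**
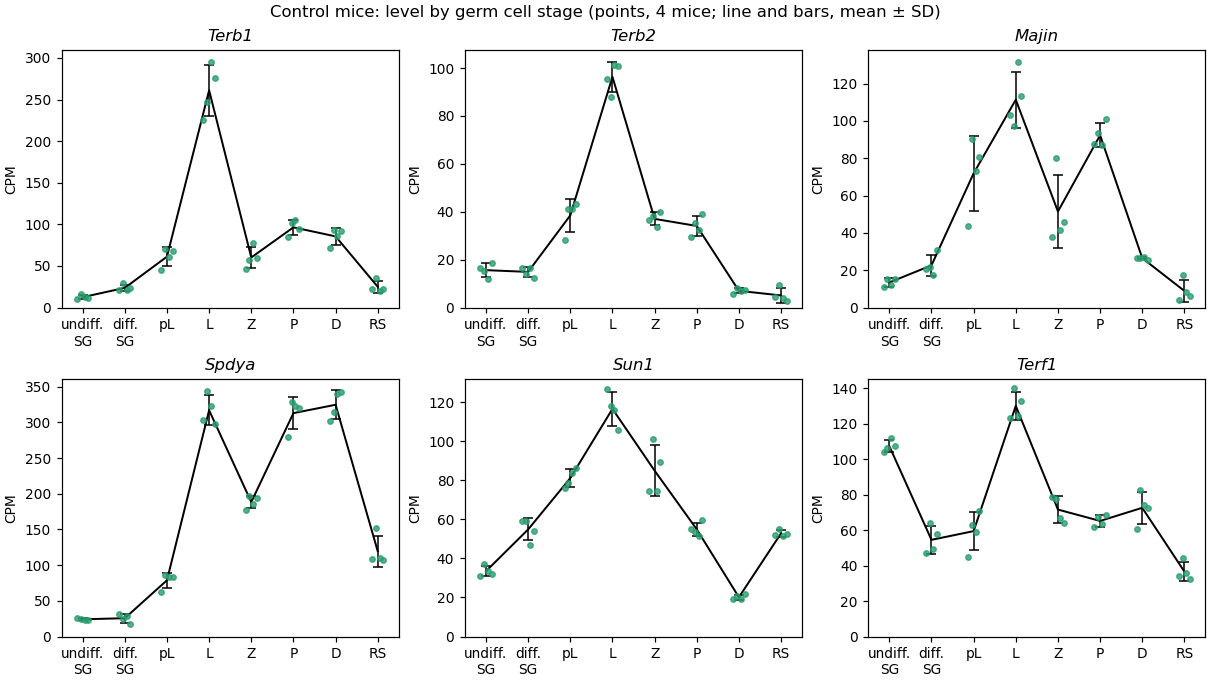
Expression of the 6 members by germ cell stage in control mice, in CPM on linear axes that start at 0; points are the 4 mice, lines join the means and bars give the SD. Each gene has its own scale. All 6 genes peak or nearly peak in L and are lower in Z, Terb1, Majin and Spdya are higher again in P, and Terf1 is also high in undifferentiated SG.

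Terb1, the scaffold of the attachment complex, showed the sharpest peak. It measured 10.9, 15.9, 12.3 and 11.1 CPM in undifferentiated SG of the 4 control mice and 44.7, 70.7, 61.4 and 68.1 CPM in pL. In L it reached 225, 248, 295 and 276 CPM, a level 21.0 times that of undifferentiated SG (geometric mean, range 15.5 to 24.9). This ratio rests on the low undifferentiated SG level, which is set beside background below. In Z it measured 46.9, 56.7, 77.95 and 59.4 CPM, so that L stood 4.38 times (3.79 to 4.80) above Z, with no overlap between mice. A second, lower level followed in P (85.4, 102, 105 and 94.1 CPM), above Z in 4 of 4 mice and overlapping that of D (71.3 to 93.0 CPM). RS held 20.0 to 35.5 CPM.

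Terb2, which joins TERB1 to MAJIN, peaked in L and was low from D on. Undifferentiated and differentiating SG overlapped, at 11.9 to 18.6 and 12.4 to 16.7 CPM. The level then rose through pL (28.2, 41.2, 41.3 and 43.4 CPM) to L (95.4, 87.9, 101 and 101 CPM). Z (33.5 to 39.9 CPM) lay 2.60 times below L, P (29.7 to 39.3 CPM) overlapped Z, and D fell to 5.58 to 8.14 CPM, below the range of either SG stage. Unlike Terb1, Terb2 did not return in P: the P to Z ratio was 0.92 for Terb2 (above 1 in 0 of 4 mice) and 1.62 for Terb1 (above 1 in 4 of 4).

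Majin, the membrane-anchored subunit, had 2 peaks. It rose from 10.9 to 15.4 CPM in undifferentiated SG to 103, 97.4, 132 and 113 CPM in L. Z measured 38.0, 80.4, 41.6 and 45.9 CPM, and control mouse 2 lay apart from the others there, with an L to Z ratio of 1.21 against up to 3.17. P returned to 87.0 to 101 CPM, above Z in 4 of 4 mice, before D (25.6 to 27.2 CPM) and RS (3.96 to 17.3 CPM) fell. This P level is an average over clusters that differed, as given below.

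Spdya, the CDK2 activator, stayed high for longest. Undifferentiated and differentiating SG overlapped (22.6 to 26.1 and 17.8 to 32.0 CPM), and these low levels are set beside free RNA below. The level then climbed from 62.7 to 86.0 CPM in pL to 303, 344, 323 and 298 CPM in L, 4.05 times higher (3.58 to 4.84). It dipped to 177, 197, 186 and 194 CPM in Z and returned to 280 to 329 CPM in P and 302 to 343 CPM in D, stages that overlapped each other and L. Even RS held 107 to 152 CPM, an average over clusters given below.

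Sun1, the inner membrane bridge, followed a broader hump. It rose at each step, from 31.2 to 37.2 CPM in undifferentiated SG over 47.1 to 59.1 CPM in differentiating SG and 75.9 to 86.2 CPM in pL to 106 to 127 CPM in L. It then fell through Z (74.5 to 101 CPM) and P (51.4 to 59.5 CPM) to D (19.0 to 21.8 CPM). RS rose again to 51.7 to 55.3 CPM, 2.63 times D, with no overlap between mice. The other 5 members fell or overlapped at this last step.

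Terf1, which encodes the telomere repeat binding protein TRF1, was high at 2 points. Undifferentiated SG held 104, 106, 112 and 108 CPM, and differentiating SG 47.1, 63.9, 49.6 and 57.6 CPM, 0.50 times as much. After pL (45.1 to 71.1 CPM) the level rose 2.21 times to 123, 140, 124 and 133 CPM in L, above undifferentiated SG by 1.21 times. Z, P and D overlapped at 60.6 to 82.9 CPM, and RS was lowest at 32.4 to 44.5 CPM.

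The pL stage was made up of clusters 1, 4 and 14, so its levels are averages over them. In controls Terb1 was at 119.6 to 185.5 CPM in cluster 4, 22.4 to 29.8 in 1 and 16.0 to 26.4 in 14. Majin was at 138 to 167, 9.89 to 41.4 and 37.2 to 70.2 CPM in the same order. Spdya was at 154 to 214, 29.8 to 52.7 and 30.4 to 47.3 CPM. Cluster 4 held 21.5% to 36.9% of the pL cells of a control. L consisted of 2 clusters that differed in these genes. Cluster 19 held 143 to 155 CPM of Terb2 and 198 to 229 CPM of Majin in the controls. Cluster 6 held 71.8 to 82.2 CPM of Terb2 and 45.3 to 83.3 CPM of Majin. Terb1 was at 289 to 367 CPM in cluster 19 and 189 to 256 CPM in cluster 6. The 2 Z clusters differed in opposite directions for 2 members: Majin measured 48.3 to 93.9 CPM in cluster 3 and 7.31 to 37.5 CPM in cluster 16, whereas Terb1 measured 33.9 to 66.4 and 73.1 to 105 CPM. P and RS were averages as well. In P of the controls Majin was at 122 to 203 CPM in cluster 7, 111 to 156 in 10 and 56.9 to 67.5 in 8. Cluster 8 thus overlapped Z as a whole. In RS Spdya was at 225 to 265 CPM in cluster 12, 100 to 131.5 in 15, 74.6 to 109 in 11 and 32.1 to 45.8 in 23 (2 mice). Among the L cells that entered the genotype comparisons, cluster 19 made up 18.0% to 37.8% in the 4 controls, 63.5% and 34.9% in the NELF-B cKO and 53.5%, 40.4% and 42.1% in the TDP-43 cKO, whose 3 mice all lay above the controls. Over all L cells, those with a Tardbp UMI included, cluster 19 made up 39.7%, 35.6% and 35.4% in the TDP-43 cKO, which overlapped the controls. Cluster 16 made up 23.6% to 34.7% of the Z cells compared in the controls, 54% and 41.4% in the NELF-B cKO and 61.9%, 46.2% and 35.3% in the TDP-43 cKO, above the controls in every cKO mouse.

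The share of cells with at least 1 UMI gave the same picture for Terb1 in L. It was 73.3% to 78.6% of L cells in control mice and 8.26% to 19.0% of Sertoli cells, somatic cells that should lack the gene, at median depths of 6248 to 9280 and 2081 to 2686 UMIs. After thinning every cell to 2000 UMIs, which left out 16 L and 476 Sertoli cells of these mice, the shares were 34.8% to 42.6% and 4.65% to 8.84%. Spdya was found in 81.5% to 88.0% of L cells (thinned, 41.9% to 47.0%) and in 21.9% to 36.3% of Sertoli cells (thinned, 11.3% to 21.6%). In undifferentiated SG, the thinned shares were 0.90% to 3.57% for Terb1, 0% to 3.95% for Terb2 and 1.80% to 6.43% for Spdya, at or below those in Sertoli cells for Terb1 and Spdya, so these 2 are not set apart from background by the Sertoli cells. Those of Terb2 overlapped the shares in Sertoli cells (0% to 3.10%), while its level in undifferentiated SG lay above that in the Sertoli cells of every control mouse (3.96 to 10.5 CPM). Control Leydig cells held less Terb1 (5.52 to 7.23 CPM) than undifferentiated SG, and Spdya at 13.98 to 26.6 CPM, which overlapped.

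Free RNA differed by gene and by mouse. In barcodes of 1 to 100 UMIs, which hold RNA from no single cell, the members stood at 18.1 to 51.9 CPM (Terb1), 8.78 to 23.8 (Terb2), 14.01 to 63.4 (Majin), 27.8 to 217 (Spdya), 21.1 to 55.1 (Sun1) and 27.6 to 66.4 CPM (Terf1) over the 9 mice. Spdya was the member with the widest range. From the UMIs of somatic marker genes, free RNA was estimated at 13.2% to 26.9% of the UMIs of undifferentiated SG in controls, 6.59% and 12.8% in the NELF-B cKO and 4.68% to 11.3% in the TDP-43 cKO. In L the estimates were 23.8% to 40.4% in controls, 12.3% and 17.7% in the NELF-B cKO and 7.02% to 14.6% in the TDP-43 cKO. Each estimate is the somatic marker share in the cells over that in free RNA. In undifferentiated SG this share was 0.009% to 0.0251% in controls and 0.0196% to 0.0257% in the TDP-43 cKO. In free RNA it was 0.0684% to 0.118% and 0.213% to 0.497%. The lower estimates in undifferentiated SG of the TDP-43 cKO thus came from its free RNA, not from fewer marker UMIs in the cells.

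To ask whether loss of either factor altered these genes before or during telomere attachment, each cKO was compared with the controls by edgeR's quasi-likelihood test on sums per mouse, with 1 fit over all 9 mice and Benjamini-Hochberg adjustment over all genes tested. A gene was called at an adjusted p under 0.05. The labels do not say more of the replicates than that each is a library, and each was 1 mouse by the study's methods. In SG and early SC summed, 0 of 6 members were called in either cKO. In the same edgeR fit, 0.0257% of 19473 genes were called in the NELF-B cKO and 0.18% in the TDP-43 cKO. The genes tested up to Z include the targeted gene itself. It stood at 0 CPM in the cKO cells compared, since cells with its UMI had been dropped. At an unadjusted p under 0.05, 1 of 6 members was reached in the NELF-B cKO and 2 of 6 in the TDP-43 cKO, where 16.3% and 26.4% of all genes were. DESeq2, which called more genes in both, called 0 members in the NELF-B cKO, where it called 9.59% of genes, and 1, Sun1, in the TDP-43 cKO, where it called 15.2%. Here and below, DESeq2 shares are of the genes to which it gave an adjusted p, and edgeR shares of all genes tested. In SG and early SC these were 11922 genes in the NELF-B cKO and 19446 in the TDP-43 cKO, of 19473. SG alone and early SC alone gave 0 of 6 as well by edgeR, against 0.011% and 1.35% of genes in the NELF-B cKO and 0.00551% and 6.81% in the TDP-43 cKO. At an unadjusted p under 0.05, 1 of 6 members was reached in SG and 0 of 6 in early SC of the NELF-B cKO (12.0% and 20.2% of genes), and 1 of 6 and 4 of 6 in the TDP-43 cKO (19.1% and 28.6%). DESeq2 called none of these in the NELF-B cKO (1.89% of genes in SG and 12.6% in early SC). In the TDP-43 cKO it called Spdya in SG, with 8.25% of genes, and Terb2 in early SC, with 15.9% of genes.

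**Figure D2:**
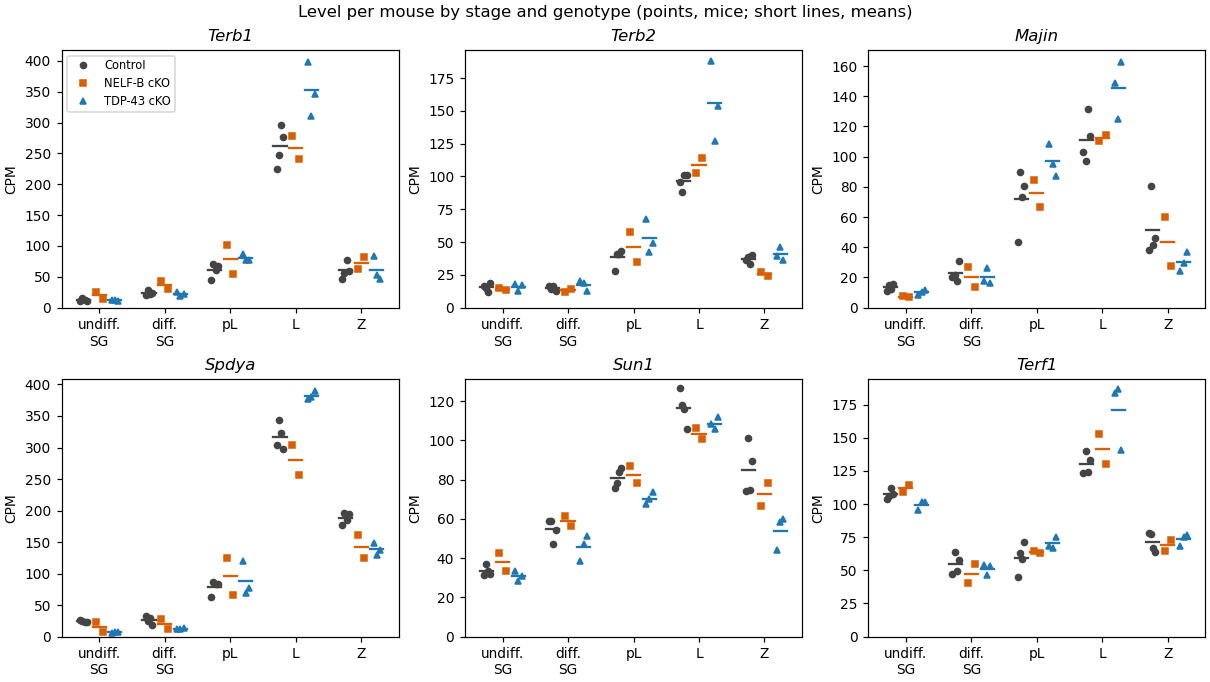
Level of each member per mouse (points, CPM, linear axes from 0) in 5 germ cell stages of control, NELF-B cKO and TDP-43 cKO mice; short lines are group means of 4, 2 and 3 mice. The L peak is present in all 3 genotypes for all 6 genes, and the 3 TDP-43 cKO mice lie above all controls in L for Terb2 (127 to 188 against 87.9 to 101 CPM) and below all controls in Z for Sun1 (43.9 to 60.0 against 74.5 to 101 CPM).

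With the stages as defined here, the L peak was present in every cKO mouse. Terb1 stood at 277 and 241 CPM in L of the NELF-B cKO and 398, 311 and 347 CPM in the TDP-43 cKO, against 225 to 295 CPM in the controls, and at 14.3 to 25.6 and 11.3 to 13.03 CPM in undifferentiated SG of the 2 cKO lines. In L of the NELF-B cKO the members had log2 fold changes from -0.14 ± 0.14 (SE) for Spdya to 0.19 ± 0.18 for Terb2 and adjusted p from 0.617 to 0.967. No member was called there, in a stage where 0.647% of 10668 genes were. The L cells of the cKO mice were gathered by integration across mice: without it, 32.0% of the L cells of NELF-B cKO mouse 1 and 0 of 86 of mouse 2 stayed in L, the others falling into pL or Z clusters.

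In L of the TDP-43 cKO, Terb2 was higher. It measured 95.4, 87.9, 101 and 101 CPM in the controls and 188, 127 and 154 CPM in the TDP-43 cKO, and the groups did not overlap. The log2 fold change was 0.78 ± 0.16 (edgeR, adjusted p = 0.0388). Of 6 members 1 was called, and 6.04% of the 10668 genes tested were called in this comparison, 2.04% as higher. The other members of the complex lay in the same direction without passing the threshold: Terb1 at 0.51 ± 0.16 (adjusted p = 0.0637) and Majin at 0.46 ± 0.15 (adjusted p = 0.08). Terf1 was at 0.47 ± 0.15 (adjusted p = 0.0755) and Spdya at 0.35 ± 0.12 (adjusted p = 0.0941), and Sun1 at -0.02 ± 0.13. An unadjusted p under 0.05 was reached by 5 of 6 members and by 28.3% of all genes. The Terb2 call held without control mouse 2 (adjusted p = 0.0466) and was lost without any other single mouse, with adjusted p of 0.0564 (control mouse 1), 0.0567 (control 3), 0.0804 (control 4), 0.193 (TDP-43 cKO 1), 0.0565 (TDP-43 cKO 2) and 0.096 (TDP-43 cKO 3) and log2 fold changes of 0.58 to 0.92. It was also lost when cells with a Tardbp UMI were removed from the controls too (0.62 ± 0.21, adjusted p = 0.0984).

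The Terb2 values also depend on how the L cells are grouped, and they are given here within clusters and without integration. Within cluster 6, Terb2 was at 71.8, 77.2, 77.5 and 82.2 CPM in the controls and 193, 119 and 132 CPM in the TDP-43 cKO, which did not overlap. Within cluster 19 it was at 147, 155, 143 and 145 CPM against 184, 141 and 183 CPM, which overlapped. Cluster 19, the one higher in Terb2, held a larger share of the L cells compared in each TDP-43 cKO mouse than in any control, as given above. Over all L cells, those with a Tardbp UMI included, the shares overlapped. Without integration across mice, 64.4% to 83.1% of the L cells of the TDP-43 cKO fell into pL clusters, 16.9% to 34.6% into Z clusters and at most 1 cell into the L cluster, whereas 64.8% to 78.6% of the control cells stayed in L. No L comparison could then be made, and in the pL clusters so defined Terb1 (log2 fold change 0.93 ± 0.17, adjusted p = 0.0319), Terb2 (0.89 ± 0.20, adjusted p = 0.0429), Spdya (0.72 ± 0.17, adjusted p = 0.044) and Terf1 (0.66 ± 0.11, adjusted p = 0.0286) were called as higher in the TDP-43 cKO. In that fit 5.24% of 14129 genes were called, 2.89% as higher. With integration none of the 6 was called in pL (0.0149% of genes were), where Majin and Terb2 were the largest at 0.47 ± 0.22 and 0.51 ± 0.24. Median depth of the L cells compared was 6248.5 to 9280 UMIs in the controls and 11836, 6944.5 and 7745 in the TDP-43 cKO.

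**Figure D3:**
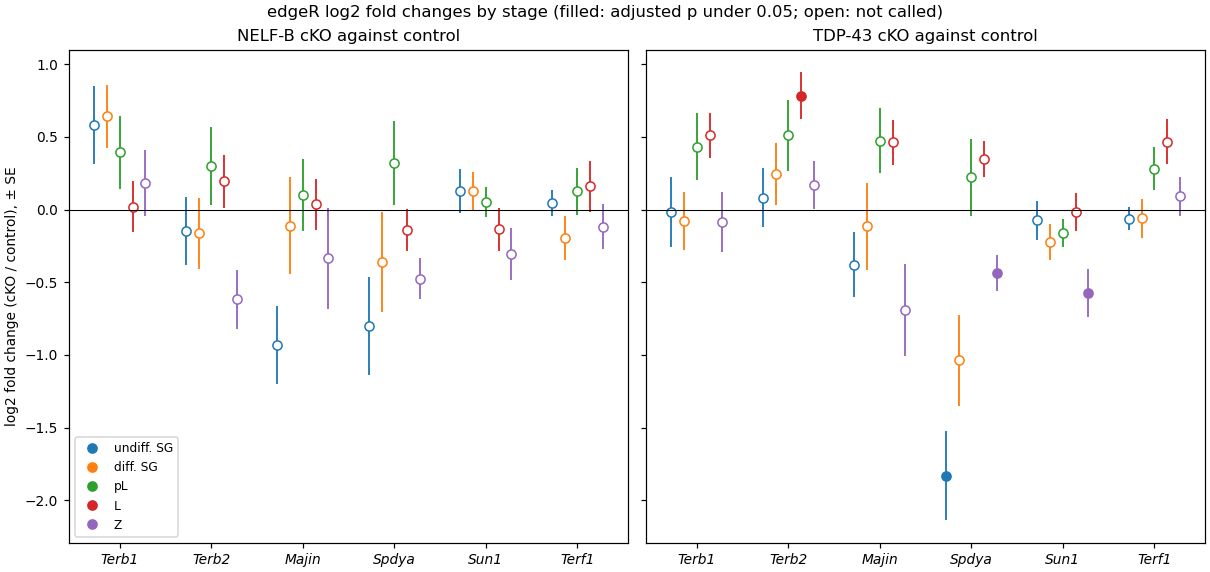
Log2 fold change of each member against control in 5 stages (edgeR, cKO over control, bars ± SE), for the NELF-B cKO (2 mice) and the TDP-43 cKO (3 mice) against 4 controls; filled points have an adjusted p under 0.05. The 4 filled points are all in the TDP-43 cKO: Terb2 in L (0.78), Spdya and Sun1 in Z (-0.44 and -0.57) and Spdya in undifferentiated SG (-1.83).

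In Z of the TDP-43 cKO, Sun1 and Spdya were lower. Sun1 measured 74.5, 101, 74.6 and 89.3 CPM in the controls and 43.9, 58.4 and 60.0 CPM in the TDP-43 cKO, and the groups did not overlap. Its log2 fold change was -0.57 ± 0.16 (edgeR, adjusted p = 0.0293). Spdya measured 177, 197, 186 and 194 CPM against 149, 129 and 137 CPM, again without overlap, a log2 fold change of -0.44 ± 0.12 (adjusted p = 0.0294). With 2 of 6 members called, both lower, the background was 16.7% of 11349 genes, 8.94% as lower. Majin was at -0.69 ± 0.32 (adjusted p = 0.156) and Terb1, Terb2 and Terf1 between -0.09 and 0.17. The Sun1 call held without control mouse 1 or 3 and was lost without control 2 (adjusted p = 0.0926), control 4 (0.0789) or TDP-43 cKO 1 (0.0861), 2 (0.0954) or 3 (0.0836). Its log2 fold change over these 7 fits was -0.64 to -0.45. The Spdya call held without control 1 or TDP-43 cKO 1 and was lost without control 2 (0.0708), 3 (0.0606) or 4 (0.0815) or TDP-43 cKO 2 (0.15) or 3 (0.111). Its log2 fold change over the 7 fits was -0.44 to -0.38.

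Within cluster 3 of Z, Sun1 stood at 73.9 to 98.1 CPM in the controls and 35.5, 46.3 and 56.2 CPM in the TDP-43 cKO, and Spdya at 194 to 206 against 112, 132 and 144 CPM. Within cluster 16 both overlapped: Sun1 at 60.7 to 118 against 49.8 to 72.9 CPM, and Spdya at 144 to 196 against 125 to 174 CPM. TDP-43 cKO mouse 1 had 8 cells in cluster 3 and 13 in cluster 16. A further limit is the removal of cells with a Tardbp UMI, which took 49 of 70, 172 of 328 and 230 of 386 Z cells from the TDP-43 cKO. The same removal was then applied to the controls, which left 16 to 37 Z cells per control mouse. In control mice 1 and 2, 77 of 95 and 165 of 181 Z cells held a Tardbp UMI. Those left were under the 20 cells that a sum needed, so the fit held controls 3 and 4 only. In it the log2 fold change of Sun1 was 0.01 ± 0.34 (edgeR, adjusted p = 0.998) and that of Spdya -0.35 (adjusted p = 0.478). With no cells left out, Sun1 was at -0.44 (adjusted p = 0.0361) and Spdya at -0.43 (adjusted p = 0.011). Without integration both calls in Z were lost, with Sun1 at -0.44 (adjusted p = 0.103) and Spdya at -0.22 (adjusted p = 0.298), in a fit where 13.8% of genes were called.

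The NELF-B cKO had values on the same side for Spdya in Z, with 160 and 124 CPM, both below the controls, and a log2 fold change of -0.48 ± 0.14 (adjusted p = 0.0522). Terb2 in Z measured 26.9 and 23.9 CPM against 33.5 to 39.9 CPM in the controls (-0.62 ± 0.21, adjusted p = 0.0787). Neither was called, in a comparison where 9.02% of genes were, and no member was called by edgeR at any stage in the NELF-B cKO. The background in the other stages of this cKO was 0.0477% (undifferentiated SG), 0.0418% (differentiating SG) and 0.506% (pL). An unadjusted p under 0.05 was reached by 2 of 6 members in undifferentiated SG (2053 of 14677 genes), 1 in differentiating SG (12.8% of genes) and 2 in Z (25.6%), and by 0 in pL, L and P. DESeq2 called 1 of these values, Spdya in Z, where it called 9.22% of genes, and 0 in undifferentiated SG (0.88%), differentiating SG (2.22%), pL (5.06%) and L (7.26%). Without NELF-B cKO mouse 1, which leaves 1 mouse assumed to vary like the other groups and low in Spdya also in its Sertoli cells (given below), edgeR called Spdya in Z (-0.68 ± 0.17, adjusted p = 0.0196) and in undifferentiated SG (-1.62 ± 0.26, adjusted p = 0.0321), with 9.37% and 1.11% of genes called in those fits. In undifferentiated SG Majin was at 7.73 and 6.84 CPM against 10.9 to 15.4 CPM (-0.93 ± 0.27, adjusted p = 0.18), and in SG as a whole Terb1 was at 40.2 and 23.2 CPM against 18.1 to 25.5 CPM (0.65 ± 0.22, adjusted p = 0.331), with only mouse 1 above all controls. The 2 NELF-B cKO mice differed from each other, for instance with 125 and 66.2 CPM of Spdya in pL. In the direct comparison of the TDP-43 with the NELF-B cKO no member was called at any stage, where 0.00623% (P) to 2.96% (pL) of all genes were, and the lowest adjusted p was 0.101 (Terb2 in Z, log2 difference 0.78 ± 0.22).

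The largest fold change of any member was that of Spdya in undifferentiated SG of the TDP-43 cKO. It measured 26.1, 24.2, 23.6 and 22.6 CPM in the controls and 6.00, 6.69 and 6.91 CPM in the TDP-43 cKO, a log2 fold change of -1.83 ± 0.31 (edgeR, adjusted p = 0.0477). The groups did not overlap, and 2.02% of 14677 genes were called in this comparison, 1.42% as lower. In differentiating SG no member was called, and 0.0119% of genes were. NELF-B cKO mouse 1 lay at 22.6 CPM, at the edge of the controls, and mouse 2 at 7.85 CPM. The call was lost when any 1 of the 7 control and TDP-43 cKO mice was left out (adjusted p 0.0542 to 0.181), at log2 fold changes of -1.86 to -1.75. The same separation was seen in somatic cells, which do not undergo meiosis and are not targeted by Stra8-iCre, though those of the cKO mice carry 1 null allele. In Sertoli cells Spdya stood at 62.8, 77.2, 80.1 and 68.7 CPM in the controls, 71.0 and 10.2 CPM in the NELF-B cKO, and 5.35, 32.2 and 23.6 CPM in the TDP-43 cKO. Leydig cells gave 13.98 to 26.6 CPM in the controls and 3.34 to 8.36 CPM in the TDP-43 cKO. Once the free RNA profile was subtracted, Spdya in undifferentiated SG was 0 CPM in all 4 control mice and 0 to 4.98 CPM in the TDP-43 cKO. The difference was not called (edgeR, adjusted p = 0.295). Values below 0 were set to 0 in the subtraction, so the controls stood at its floor. The subtracted values therefore cannot decide whether Spdya differed in undifferentiated SG. In Z Spdya was 177 to 194 CPM in the controls and 134 to 153 CPM in the TDP-43 cKO after the same subtraction. The call there was lost too (edgeR, log2 fold change -0.32, adjusted p = 0.0867).

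**Figure D4:**
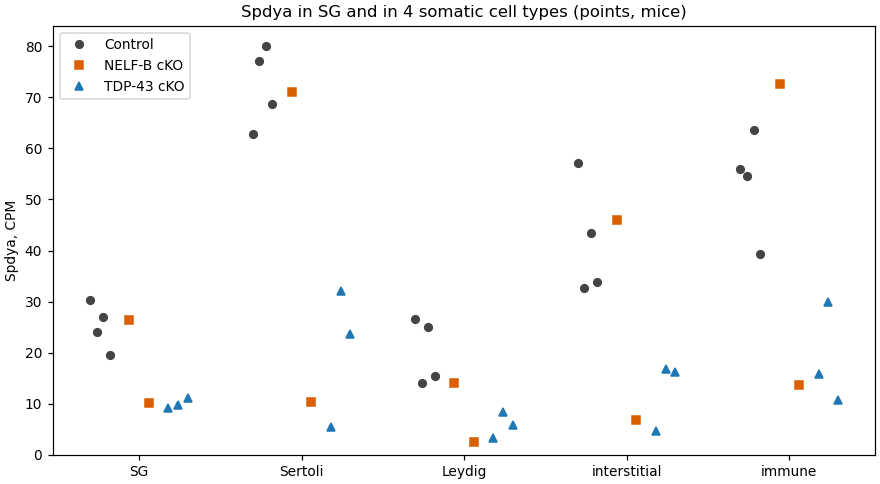
Spdya in SG and in 4 somatic cell types (CPM, linear axis from 0; points are mice: 4 control, 2 NELF-B cKO, 3 TDP-43 cKO). In Sertoli cells, which carry no meiotic program, the controls lie at 62.8 to 80.1 CPM and the TDP-43 cKO at 5.35 to 32.2 CPM, the same order as in SG, where they lie at 19.5 to 30.4 and 9.15 to 11.02 CPM.

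At P and later, no member was called by edgeR or DESeq2, and 0 reached an unadjusted p under 0.05. In P the log2 fold changes lay between -0.24 and 0.09 in the NELF-B cKO (286 and 73 cells) and between -0.11 and 0.21 in the TDP-43 cKO, for which mouse 1 had 4 P cells and was left out of the fit. Terb1 in P was at 115 and 68.5 CPM in the NELF-B cKO and 90.4 and 90.3 CPM in the TDP-43 cKO against 85.4 to 105 CPM in the controls. Cluster 10 made up 26.8% to 38.7% of the P cells of a control and 12.2% and 32.9% in the NELF-B cKO. In the TDP-43 cKO mice compared it made up 47.9% and 43.75%. The background in P was 0.00623% and 0.0249% of 16039 genes by edgeR and 0.935% and 0.929% by DESeq2. D and RS could be compared for the TDP-43 cKO only, with 2 mice, and gave log2 fold changes of -0.05 to 0.36 in D (1.7% of genes called, 5.55% by DESeq2) and -0.58 to -0.14 in RS (0.0% called, 0.476% by DESeq2). Terb1 in RS was at 18.6 and 22.4 CPM, from 44 and 81 cells, against 20.0 to 35.5 CPM in the controls.

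Genes that act with the members were taken from 5 lists: 11 genes of the nuclear envelope bridge and lamins, 6 CDK2 and Speedy partners, 6 shelterin subunits, 11 telomere maintenance genes and 11 dynein and dynactin genes. In SG and early SC summed, 0 genes of any list were called in either direction in either cKO. The median log2 fold changes of the lists lay between -0.08 and 0.14 in the NELF-B cKO and between -0.04 and 0.14 in the TDP-43 cKO, against -0.02 and 0.01 over all genes. At an unadjusted p under 0.05, reached by 16.3% of all genes in the NELF-B cKO and 26.4% in the TDP-43 cKO, the counts were 4 and 4 of 11 dynein and dynactin genes, 3 and 5 of 11 telomere maintenance genes, 1 and 2 of 11 nuclear envelope genes, 1 and 3 of 6 CDK2 and Speedy partners and 0 of 6 shelterin genes in both.

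KASH5, listed under its older symbol Ccdc155 (chr7:45183624-45204892, minus strand), is the outer membrane partner of SUN1 and binds dynein. Its level in control mice climbed from 10.96 to 14.5 CPM in undifferentiated SG over 60.1 to 88.3 CPM in L to 136 to 155 CPM in P, so it peaked later than Sun1, which was highest in L. Cdk2, the kinase that Speedy A activates, was highest in L (59.0, 65.2, 70.1 and 68.0 CPM) and lower in Z (26.9 to 32.1 CPM), the same order as in all 6 members. Sun2, a second inner membrane SUN protein, had its highest mean in pL (15.0 to 24.6 CPM), which overlapped differentiating SG (13.9 to 17.2 CPM), with 7.70 to 14.2 CPM in Z. Terf2, which encodes the shelterin subunit TRF2, was level from pL to Z (55.0 to 68.2 CPM) and did not show the L peak of Terf1.

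**Figure D5:**
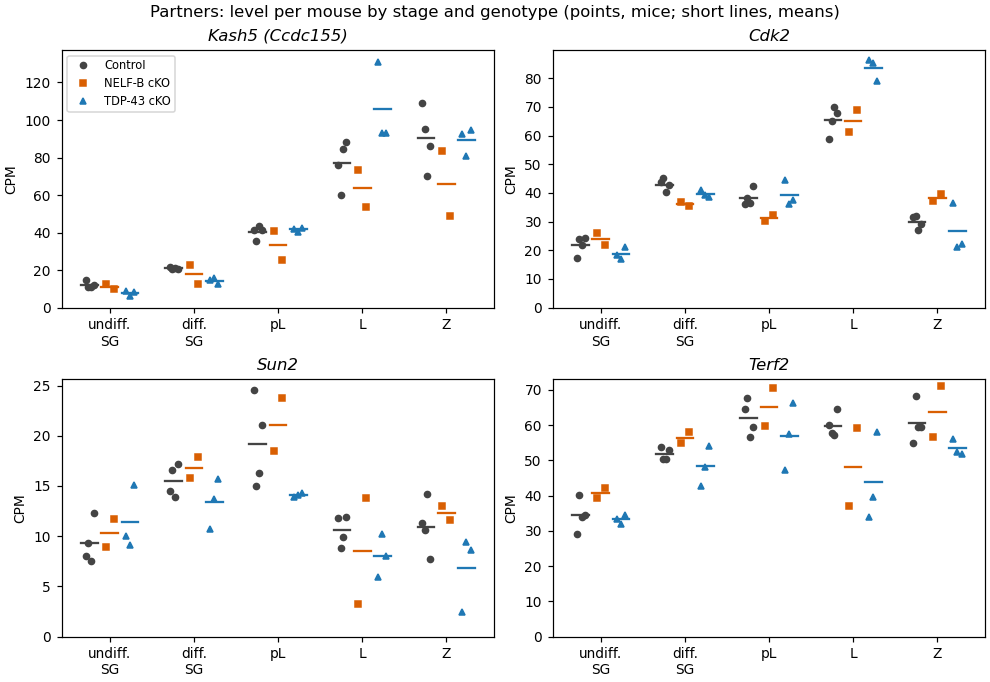
Level per mouse (points, CPM, linear axes from 0) of 4 partners of the members in 5 stages; short lines are group means of 4 control, 2 NELF-B cKO and 3 TDP-43 cKO mice. Cdk2 peaks in L in all genotypes (59.0 to 70.1 CPM in controls and 79.0 to 86.4 CPM in the TDP-43 cKO), and Terf2 is level from pL to Z in the controls.

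None of these 4 partners was called in SG and early SC, L or Z. In L of the TDP-43 cKO Cdk2 was at 86.4, 85.3 and 79.0 CPM, above all controls (0.42 ± 0.14, adjusted p = 0.0796), and Ccdc155 at 131, 92.9 and 93.0 CPM (0.53 ± 0.22, adjusted p = 0.132). Sun2 (-0.34 ± 0.47) and Terf2 (-0.38 ± 0.20) lay on the other side of 0. In SG and early SC of the NELF-B cKO Ccdc155 was at -0.59 ± 0.20 (adjusted p = 0.193).

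A few genes of the lists were called in single stages of the TDP-43 cKO, and they are named here after their values were seen. The share of all genes called was 6.04% in L, 16.7% in Z and 2.02% in undifferentiated SG. In L, 1 call in a list of 8 or 10 is thus near the background. In Z, 2 of 10 tested telomere maintenance genes were called as higher and 1 as lower. Of 5 tested CDK2 and Speedy partners, 1 was higher and 1 lower. Lower was also 1 of 11 dynein and dynactin genes, and higher 1 of 9 nuclear envelope genes. In undifferentiated SG, 1 of 5 CDK2 and Speedy partners and 1 of 11 dynein and dynactin genes were lower, and 1 of 11 telomere maintenance genes higher. In L, 1 of 8 tested genes of the nuclear envelope list was called, Lmna, which encodes A-type lamins (50.9 to 85.4 CPM against 22.7 to 31.1 CPM, log2 fold change 1.39 ± 0.31, adjusted p = 0.0401). Somatic marker genes made up 0.213% to 0.497% of the free RNA in the TDP-43 cKO and 0.0684% to 0.118% in the controls. The part of free RNA in the Lmna value is not given here. In L, 1 of 10 telomere maintenance genes was also called, Fbxo47, a meiotic F-box gene (363 to 369 CPM against 221 to 275 CPM, 0.66 ± 0.13, adjusted p = 0.0384). In Z, Ccna1, the germ cell A-type cyclin that also binds CDK2, was at 0 to 2.40 CPM against 12.6 to 25.1 CPM in the controls (-3.06 ± 0.70, adjusted p = 0.0114). It was called in undifferentiated SG too (0.50 to 1.06 against 7.64 to 13.8 CPM, -3.56 ± 0.63, adjusted p = 0.0477), and the part of free RNA in both values is not given here. In differentiating SG, pL and L, 0 genes of the CDK2 and Speedy list were called. Its lowest log2 fold changes there were -2.72, -3.54 and -3.46, so low values were not particular to the called stages. Of the 5 shelterin genes besides Terf2 none was called in L or Z of either cKO.

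Across the 32 sums of 8 stages and 4 control mice, the profiles of the members were alike to very different degrees. Pearson's r of log2(CPM + 1) was 0.87 between Terb2 and Majin, 0.83 between Terb1 and Spdya, 0.82 between Terb1 and Majin and 0.64 between Terb1 and Terb2. Spdya and Terf1 correlated at 0.13, and Sun1 and Terf1 at 0.13. The points share mice, libraries and clusters, so these values describe the profiles and carry no p. Among 11923 other genes with at least 20 CPM in their highest stage, those most like each member were Gtpbp8, Ptgr2 and Stag3 for Terb1 (r = 0.96, 0.94 and 0.93), of which Stag3 encodes the meiotic cohesin subunit. For Terb2 they were Usp32, Fbxl5 and Anapc16 (0.97, 0.97 and 0.97), and for Majin Prpf40b, Tra2a and Tcaim (0.94, 0.94 and 0.94). Spdya was most like 3830406C13Rik, Krcc1 and Pcbp3 (0.97 each), Sun1 most like Tc2n, Gm26621 and Crebzf (0.97, 0.94 and 0.93), and Terf1 most like Ctr9, Nedd1 and Kdm2b (0.91, 0.91 and 0.89). The genes nearest to Terb1 and Terb2 were all highest in L, whereas those nearest to Spdya were highest in P or D.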

How the data were processed

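Whole testes of 9 mice were profiled by droplet 3′ single-cell RNA sequencing. The deposited matrices hold UMI counts per gene and barcode, made by the authors with Cell Ranger on mm10 (versions 6.1.1 and 7.0.0 in the submitters' notes), and were used as deposited. The filter of the study was applied: more than 1000 genes and less than 10% mitochondrial UMIs per barcode, and genes in over 15 barcodes. Cells were clustered in scanpy 1.11.5 (3000 variable genes, 40 components, 53 genes left out), and germ cells after integration across mice in Seurat 5.3.0 (30 components). The 53 genes were the members, the genes of the lists, Nelfb and Tardbp. A stage name needed 3 fixed markers at 2-fold. Scrublet called only 94 barcodes (0.208%), so it did not work and doublets were in effect not removed. Up to Z, cKO germ cells that held a UMI of their targeted gene were dropped.

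UMIs were summed per mouse and stage, for sums of at least 20 cells, and tested with edgeR 4.0.16 (filterByExpr, TMM, quasi-likelihood, all 9 mice in 1 fit). P-values were adjusted by Benjamini-Hochberg over all genes. The script was tested on simulated counts. Free RNA was profiled from barcodes of 1 to 100 UMIs. Fold changes are log2 values. Total UMIs were 119203347 to 159407373 per mouse, shares cover counting error only through their UMIs, and low levels are limited by that depth. Between libraries, 260 barcode sequences were shared and 0 pairs had identical counts.

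The 6 members, their partners and the lists were chosen with earlier results of these data known. Named were the members, Kash5, Cdk2, Sun2 and Terf2, the list genes called in SG and early SC (at most 4 per cKO, of which there were none) and the 3 genes most like each member. DESeq2 1.42.0, no TMM, no low-count filter, a replicate block, only the compared groups, other cell removals, clusters without integration, free RNA subtraction and leaving out each mouse were the alternatives. Levels within the clusters of a stage were added after the data were seen.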

Additional observations from a re-analysis of the deposited data

Results flagged for a closer look

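In control mice, 4 of 48 combinations of member and stage held a mouse that lay far from the other 3, by Dixon's ratio of its gap to the whole range (above its 95% critical value for 4 samples). Chance flags about 1 in 20 groups. Control mouse 1 was the lowest in pL for Terb2 (28.2 CPM, ratio 0.853) and for Spdya (62.7 CPM, ratio 0.871). Its share of pL cells in cluster 4 was also the lowest, at 21.5% against 31.6% to 36.9%, and a link was not tested. Control mouse 2 was the highest in RS for Terb1 (35.5 CPM, ratio 0.838) and for Spdya (152 CPM, ratio 0.924).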

How the results depend on the processing

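Of 1866 alternative values of 120 log2 fold changes, 33 lost a call without a change of sign and 33 gained one. A change of sign was seen in 181, of which 2 had the value or its alternative called, and 143 uncalled values moved by over 1 SE. In SG and early SC of the NELF-B cKO, where 0 members were called, removing cells with a Nelfb UMI from the controls too called 1 (Spdya, with 4.42% of all genes), and leaving out a mouse called 0 to 1 (Spdya, without NELF-B cKO mouse 1, with 0.539% of genes). A fit without either NELF-B cKO mouse leaves 1 mouse in that group, which is assumed to vary like the other groups. In SG of the NELF-B cKO leaving out a mouse called 0 to 1 (Terb1, without NELF-B cKO mouse 2, with 2.53% of genes). In the TDP-43 cKO, DESeq2 called 1 member in SG and early SC (Sun1), 1 in SG (Spdya) and 1 in early SC (Terb2), where it called 15.2%, 8.25% and 15.9% of all genes, a fit of only the 2 groups called 2 (Spdya and Sun1) in SG and early SC and 1 (Spdya) in SG (16.6% and 8.42% of genes), and a fit with stage as a term called 1 (Terb2, with 18.0% of genes). Over all genes in SG and early SC, the NELF-B cKO had 5 calls, 1 at an adjusted p under 0.01 with a log2 fold change of 1, 1143 with DESeq2, 1 with only the 2 groups, 836 with cells removed from the controls too, 1 without integration, 242 with free RNA subtracted, 2215 with stage as a term and 1 to 436 without single mice (109 without NELF-B cKO mouse 1, 436 without mouse 2). The TDP-43 cKO had 35, 1 under the stricter rule, 2948 with DESeq2, 9 without TMM, 58 without the filter, 3056 with only the 2 groups, 1 with no cells left out, 1 with cells removed from the controls too, 16 without integration, 516 with free RNA subtracted, 3081 with stage as a term and 1 to 6 without single mice. The cause of these differences was not tested.

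The 4 calls of members in single stages, where 3.0% of all gene tests were called, became 0 under the stricter rule (0.614% of tests), 9 with DESeq2 (7.27%), 8 without the filter (4.14%), 9 with only the 2 groups (6.64%), 1 with cells removed from the controls too (1.11%, with Terb2 in L and both Z calls lost), 2 with free RNA subtracted (4.58%, with both Spdya calls lost) and 0 to 6 without single mice (1.49% to 3.48%), where comparisons that did not hold the left-out mouse kept their value. Without integration 4 were called (2.88% of tests), all in pL of the TDP-43 cKO, and none of the original calls was among them. The log2 fold change of Spdya in undifferentiated SG of the TDP-43 cKO reversed to 5.33 with free RNA subtracted (edgeR, adjusted p = 0.295). All 4 controls stood at 0 there, the floor of the subtraction, so neither its sign nor its size can be read. That of Sun1 in Z reversed to 0.012 with cells removed from the controls too (edgeR, adjusted p = 0.998). In Z of the TDP-43 cKO this removal left only controls 3 and 4 in the fit. The removal of cells and the smaller number of controls therefore cannot be told apart as sources of the loss of both Z calls.

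Whether replicate numbers pair the mice could not be settled. Correlations of deviations ran from -0.413 to 0.381 for same-numbered mice and from -0.381 to 0.413 for the others. The deviations of the 2 NELF-B cKO mice mirror each other by construction. With a replicate block all 4 single-stage calls were lost (0 called, 0.915% of tests), and 1 gene was called over all genes in SG and early SC of either cKO.

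The log2 ratio of early SC to SG in control mice was 2.97 for Terb1, 2.01 for Terb2, 2.64 for Majin, 8.24 for Spdya (all 4 mice at the floor in SG), 1.09 for Sun1 and 0.15 for Terf1 with free RNA subtracted. That of Terf1 was 0.042 without integration and 0.20 as a mean over cells. Without single mice the ratios were 2.17 to 2.42 for Terb1, 1.64 to 1.79 for Terb2, 1.75 to 2.01 for Majin, 2.56 to 2.86 for Spdya, 0.85 to 0.96 for Sun1 and 0.09 to 0.11 for Terf1. The NELF-B cKO rests on 2 mice, and the smallest sum compared up to Z held 21 cells.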

Other observations

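Other genes of the lists were called in single stages and are named after their values were seen. In Z of the TDP-43 cKO, Dkc1 (1.12, adjusted p = 0.0147) and Nop10 (0.50, adjusted p = 0.00649), both of the H/ACA ribonucleoprotein that binds telomerase RNA, were higher, as were Ccne1 (0.93, adjusted p = 0.00588), a cyclin partner of CDK2, and Banf1 (0.43, adjusted p = 0.03), which binds DNA and the nuclear lamina. In the same Z cells Rtel1, a telomere helicase (-1.45, adjusted p = 0.00481), and Dync1li2, a dynein light intermediate chain (-0.70, adjusted p = 0.0144), were lower. All values are log2 fold changes by edgeR, and 16.7% of genes were called in this comparison. In undifferentiated SG of the TDP-43 cKO, where 2.02% of genes were called, Nhp2, of the same H/ACA particle, was higher (0.44, adjusted p = 0.0488) and Dync1h1, the dynein heavy chain, lower (-0.44, adjusted p = 0.0477). In early SC of the TDP-43 cKO, where 6.81% of genes were called, Lmna (0.81, adjusted p = 0.0398) and Dkc1 (0.51, adjusted p = 0.037) were higher. They were 1 of 10 tested nuclear envelope genes and 1 of 11 telomere maintenance genes. The part of free RNA in these 2 values is not given here. In Z of the NELF-B cKO, where 9.02% of genes were called, Ccne1 was higher (1.03, adjusted p = 0.00977) and Dynll1, a dynein light chain, lower (-0.64, adjusted p = 0.0095). They were 1 of 5 tested CDK2 and Speedy partners and 1 of 11 dynein and dynactin genes.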
